A study of Mus musculus with 2 samples.

Results

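The adipogenic transcription factors described here are 10 genes, namely Pparg, Cebpa, Cebpb, Cebpd, Klf4, Klf15, Mlxipl, Ebf1, Ebf2 and Zfp423. They were chosen by name, as the probe sets whose gene symbol in the array's annotation is one of these 10. Each of the 10 genes was found with 1 probe set, so that the members are 10 of the 22206 probe sets and of the 19505 named genes measured.

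Fat cells arise from fibroblast-like precursors by a cascade of transcription factors. ZFP423 and the early B cell factors EBF1 and EBF2 are known to mark precursors for the fat lineage, C/EBPbeta, C/EBPdelta and KLF4 act early after the hormonal stimulus, and these lead to PPARgamma and C/EBPalpha, which switch on the genes of the mature fat cell and maintain each other's expression. KLF15 and ChREBP, the product of Mlxipl, act in mature fat cells on glucose uptake and on fat synthesis.

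KO_A12 mice are A/J-12SM mice in which Iah1 was disrupted in all tissues with the CRISPR/Cas9 method, and WT_A12 mice are A/J-12SM mice without this change. Iah1 is named after an esterase, an activity reported for the yeast protein, while its function in mice is largely unknown. A/J-12SM is a consomic strain that carries chromosome 12 of SM/J on the A/J background, and both groups share it. The KO_A12 line was kept by mating homozygotes, so that the mice compared need not be littermates. All mice were males that received a high-fat diet for 12 weeks from 6 weeks of age and were fasted for 4 h at 18 weeks of age. The RNA of epididymal fat from 3 mice was pooled for each genotype and hybridized to 1 Clariom S Mouse Array, which gives each probe set a signal on the log2 scale. Since each genotype is 1 pool on 1 array, the variation among mice was not measured, the differences stand without replicates or errors, and they were not tested. Pool and genotype cannot be told apart.

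Some facts of the arrays as a whole bear on the members. Iah1 itself had a log2 signal of 8.35 in the KO_A12 pool and 9.52 in the WT_A12 pool, where the position of its probes relative to the edited exon is not known here. The white adipocyte markers Adipoq (18.31 in the KO_A12 pool and 18.22 in the WT_A12 pool) and Lep (17.74 and 17.65 in the same order) stood far above the background controls, whose median signals were 5.61 and 5.75. All 10 measured hepatocyte markers and all 5 seminal vesicle markers had higher signals in the KO_A12 pool, while 9 and 5 of them lay under the background median in the WT_A12 pool. All 9 measured macrophage markers had lower signals in the KO_A12 pool. Markers of mesothelium and of smooth muscle were higher in 6 of 7 cases each, with medians of 0.49 (0.87 without genes under 7 on both arrays) and 0.29. The median log2 difference of all probe sets, KO_A12 minus WT_A12, was 0.0003, and 95% of the differences lay between -0.84 and 0.86.

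Of the 10 adipogenic factors 5 had a higher signal and 5 a lower signal in the KO_A12 pool, beside 50.0% higher and 49.8% lower among all probe sets. The median of their log2 differences was -0.07, or -0.02 after quantile normalization and -0.03 after removal of a lowess trend. For 8 of them the difference was smaller than 0.25 in either direction. The other two, Klf4 at -0.74 and Ebf2 at -0.71, were both lower in the KO_A12 pool. At the cutoffs of the study, a 2-fold difference and a log2 signal over 7 in the pool with the higher signal, 0 of the 10 members were higher and 0 were lower, beside 0.567% and 0.757% of all probe sets. At 1.5-fold, a log2 difference of 0.585, with the same signal cutoff, 0 members were higher (2.19% of all probe sets) and 2 were lower (3.71%). Over the 10529 probe sets that reached this signal in either pool, 4.63% were higher and 7.83% lower by 1.5-fold. Klf4 and Ebf2 are the members inside this cutoff, and the nearest members outside it were Zfp423 at 0.24 on the higher side and Ebf1 at -0.22 on the lower side.

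**Figure D1:**
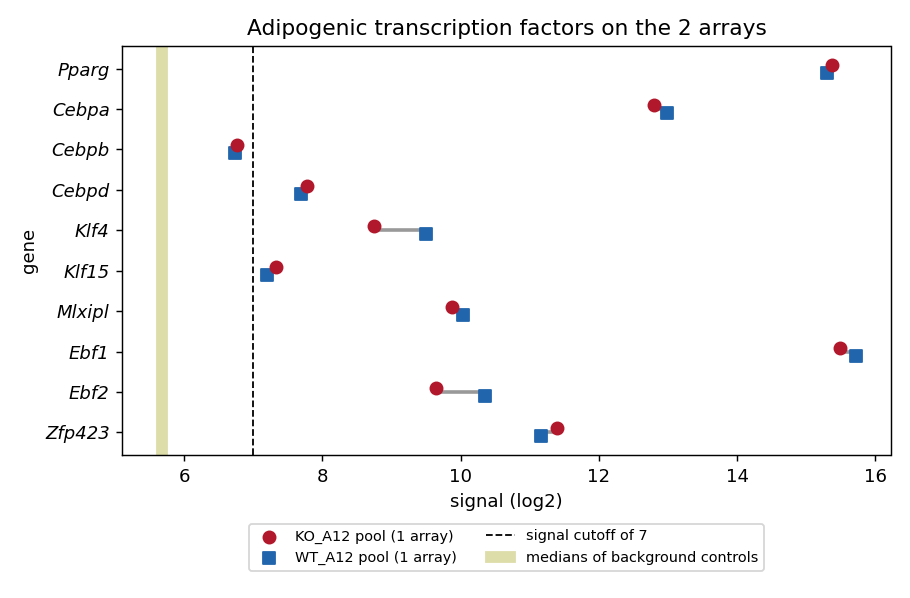
Log2 signal (x axis) of each of the 10 factors (y axis) in the KO_A12 pool (red circles) and the WT_A12 pool (blue squares), 1 array each, so without error bars. The symbols nearly coincide for most genes, while Klf4 (8.75 and 9.49) and Ebf2 (9.64 and 10.36) are shifted to lower signals in the KO_A12 pool, and Cebpb lies under the cutoff of 7 in both pools.

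How far a probe set moves between these 2 arrays depends on its signal, and each member was therefore set among the 500 probe sets nearest to it in mean signal. All 10 members lay inside the central 95% of the differences of these neighbours. Klf4 lay nearest to the lower edge, since 4.4% of its neighbours had a lower difference, and for Ebf2 the share was 5.8%. Zfp423 lay highest, with 83.4% of its neighbours below it. These shares describe 2 arrays and are no test of the genotype. Among the 17 genes of the array with exactly 2 probe sets over 7 on both arrays, the log2 differences of the 2 probe sets were apart by a median of 0.28, and by 0.58 at the 90th percentile. Probe sets of one gene may read different transcripts, so this gap is only a rough scale for a difference read by a single probe set.

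**Figure D2:**
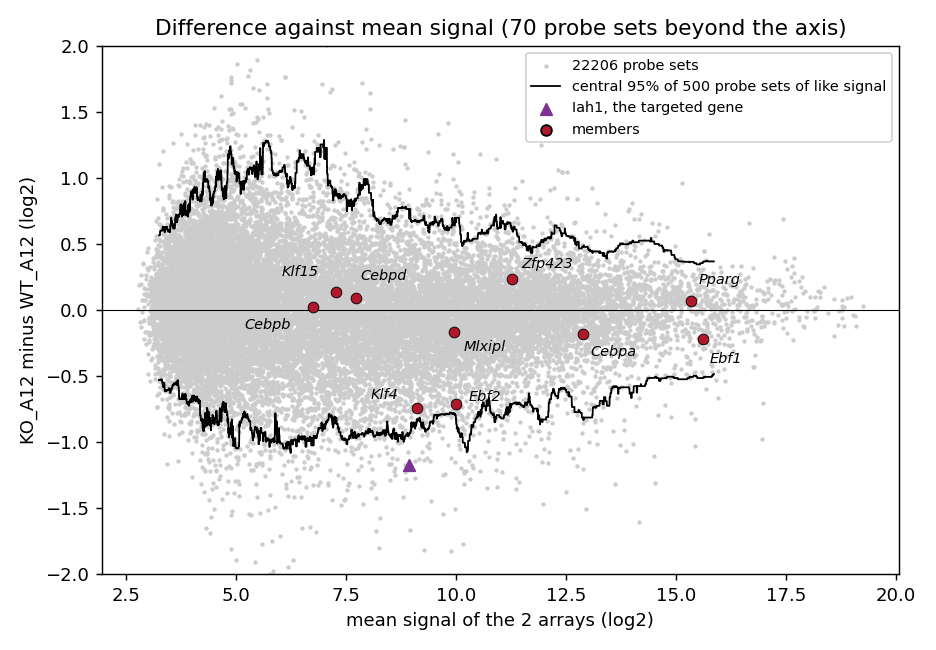
Log2 difference, KO_A12 minus WT_A12 (y axis), against the mean log2 signal of both arrays (x axis) for 22206 probe sets (grey), with the 10 members in red, Iah1 as a triangle and black lines around the central 95% of 500 probe sets of like signal. All members lie between the lines, with Klf4 and Ebf2 close to the lower one, and 70 probe sets fall beyond the axis limits of -2 and 2.

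Pparg and Cebpa, the pair that defines the mature fat cell, differed little between the pools. Pparg encodes PPARgamma, the nuclear receptor without which fat cells do not form, and its log2 signal was 15.38 in the KO_A12 pool and 15.31 in the WT_A12 pool. The difference was 0.07, and 62.4% of the neighbours had a lower one. Cebpa encodes C/EBPalpha, which sustains Pparg and makes fat cells sensitive to insulin. Its signal was 12.80 in the KO_A12 pool and 12.98 in the WT_A12 pool, a difference of -0.18, with 26.6% of the neighbours lower. Cebpa is also active in the liver, and the hepatocyte marker Alb had signals of 15.99 and 8.22 in the KO_A12 and WT_A12 pools, so that the signal of Cebpa was slightly lower in the pool where that of Alb was higher. The part of liver RNA in the signal of Cebpa was not tested.

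Pparg is transcribed from several starts, and its single probe set gives 1 value for the gene. The starts are shown here because PPARgamma2, the form typical of fat cells, comes from the start that lies furthest along the gene, and which of the transcripts the probes cover is not given in the sources used here. In the RefSeq table of GRCm38.p6 this start lies 60922 bases beyond the first one, and another start lies 1205 bases beyond the first. The sequences below run from 250 bases before to 50 bases after a start. RefSeq is the genome of C57BL/6J, so that A/J-12SM mice may differ from it at single bases. Capitals mark TATAAA on either strand, and the letters CACGTG are absent from these 3 windows.
Pparg, first start (chr6:115360894-115361193, plus strand): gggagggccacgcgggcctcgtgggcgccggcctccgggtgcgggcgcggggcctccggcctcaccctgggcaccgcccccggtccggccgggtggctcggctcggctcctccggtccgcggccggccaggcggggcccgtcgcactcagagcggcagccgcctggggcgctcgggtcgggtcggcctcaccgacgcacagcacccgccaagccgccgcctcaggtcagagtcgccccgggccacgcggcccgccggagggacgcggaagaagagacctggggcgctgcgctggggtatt
Pparg, last start (chr6:115421816-115422115, plus strand): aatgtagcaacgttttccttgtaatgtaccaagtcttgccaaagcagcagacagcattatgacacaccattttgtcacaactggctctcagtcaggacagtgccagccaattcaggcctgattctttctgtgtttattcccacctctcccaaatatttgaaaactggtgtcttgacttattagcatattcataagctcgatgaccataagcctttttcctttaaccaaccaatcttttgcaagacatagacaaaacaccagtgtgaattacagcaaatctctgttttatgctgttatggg
Cebpa (chr7:35119043-35119342, plus strand): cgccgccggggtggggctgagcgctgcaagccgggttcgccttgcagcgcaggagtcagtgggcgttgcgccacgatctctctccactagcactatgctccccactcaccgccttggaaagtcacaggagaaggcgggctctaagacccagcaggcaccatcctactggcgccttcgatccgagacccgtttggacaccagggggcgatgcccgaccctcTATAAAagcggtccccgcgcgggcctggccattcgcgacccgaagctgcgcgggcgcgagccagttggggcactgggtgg
The Cebpa window holds TATAAA 30 bases before the start, and the window of the intermediate Pparg start holds it on the opposite strand. The Cebpb window, not printed here, holds it at base 22 after the start. These are 3 of the 13 windows found for the members. The letters are found on either strand in 13.6% of the 32851 promoter windows of the table. The first Pparg window is rich in G and C (80.3%) and the last one is not (40.3%), against a median of 52.7% over all windows.

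The early factors of the C/EBP family hardly differed between the pools. Cebpb encodes C/EBPbeta, which responds to cyclic AMP and opens the cascade. It had a signal of 6.76 in the KO_A12 pool and 6.74 in the WT_A12 pool, so that it stayed under the cutoff of 7 on both arrays and could not have been called there. It was the only member of which this is true. Cebpd encodes C/EBPdelta, which responds to glucocorticoids, and had 7.78 in the KO_A12 pool and 7.69 in the WT_A12 pool, a difference of 0.09. The neighbours of both genes spread widely, with central 95% ranges from -1.02 to 1.06 for Cebpb and from -0.97 to 0.84 for Cebpd, so a moderate difference in either gene could not be told from the scatter of like probe sets.

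Klf4 had the lowest difference of the members. It encodes a Kruppel-like zinc finger protein that, in mouse preadipocyte cultures, is induced early and acts on Cebpb together with the product of Egr2. The signal of Klf4 was 8.75 in the KO_A12 pool and 9.49 in the WT_A12 pool, a difference of -0.74 that corresponds to a 1.68-fold lower signal. Egr2 was lower too, at 9.08 in the KO_A12 pool and 10.32 in the WT_A12 pool, and its difference of -1.25 passed the 2-fold cutoff. Their shared target Cebpb had a difference of 0.02, at signals of 6.76 in the KO_A12 pool and 6.74 in the WT_A12 pool. Probe sets of like signal spread from -1.02 to 1.06, so this value cannot show whether Cebpb followed Klf4 and Egr2. Klf4 is also used by monocytes and macrophages, and the 9 measured macrophage markers were all lower, with a median difference of -0.67, a range from -1.55 to -0.41, summed log2 signals of 105.4 in the KO_A12 pool and 113.5 in the WT_A12 pool, and none under the background median on either array. The mean difference of these markers was -0.91. Sums of log2 signals, here and below, are not amounts of RNA, so the ratio of such sums is not a fold difference. Whether the difference of Klf4 came with fewer monocytes or macrophages was not tested, and in pooled tissue fewer cells of a type and less RNA per cell cannot be told apart.

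Klf15 had a signal of 7.33 in the KO_A12 pool and 7.19 in the WT_A12 pool. Its product raises the glucose transporter Slc2a4 in fat cells and is induced by glucocorticoids. The difference of 0.13 lay well within the central 95% of its neighbours, -0.82 to 0.92. Slc2a4 itself, encoding GLUT4, had a difference of 0.20 (9.66 in the KO_A12 pool and 9.46 in the WT_A12 pool).

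Mlxipl encodes ChREBP, a factor that senses sugar and drives fat synthesis in liver and fat. Its signal was 9.88 in the KO_A12 pool and 10.04 in the WT_A12 pool, a difference of -0.16, with 42.8% of the neighbours lower. It came to -0.07 after quantile normalization and -0.09 after removal of a lowess trend. ChREBP is known in 2 forms, of which the more active one starts from an upstream exon whose promoter is itself bound by ChREBP at an E-box. The 2 starts in the RefSeq table are 17001 bases apart and are shown for this reason, together with that of Klf4 as the member with the lowest difference. Capitals mark the E-box letters CACGTG.
Mlxipl, upstream start (chr5:135089640-135089939, plus strand): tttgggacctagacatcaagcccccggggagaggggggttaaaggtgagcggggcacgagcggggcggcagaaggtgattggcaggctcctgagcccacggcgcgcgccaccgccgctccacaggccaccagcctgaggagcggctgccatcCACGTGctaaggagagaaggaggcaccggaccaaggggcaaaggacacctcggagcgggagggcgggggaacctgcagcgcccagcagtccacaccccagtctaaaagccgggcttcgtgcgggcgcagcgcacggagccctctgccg
Mlxipl, downstream start (chr5:135106641-135106940, plus strand): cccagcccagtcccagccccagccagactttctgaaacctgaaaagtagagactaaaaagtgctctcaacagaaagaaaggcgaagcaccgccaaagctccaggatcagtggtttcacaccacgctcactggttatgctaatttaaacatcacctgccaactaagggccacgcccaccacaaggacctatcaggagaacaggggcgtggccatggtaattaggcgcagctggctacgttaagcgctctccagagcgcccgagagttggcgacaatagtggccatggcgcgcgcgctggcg
Klf4 (chr4:55532426-55532725, minus strand): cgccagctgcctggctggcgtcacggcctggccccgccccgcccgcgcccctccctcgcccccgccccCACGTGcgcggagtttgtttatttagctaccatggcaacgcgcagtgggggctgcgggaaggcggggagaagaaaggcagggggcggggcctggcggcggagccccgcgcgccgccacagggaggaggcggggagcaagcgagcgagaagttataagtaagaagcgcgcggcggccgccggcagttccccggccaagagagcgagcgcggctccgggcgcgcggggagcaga
The upstream window of Mlxipl holds CACGTG 98 bases before the start, and the downstream window does not hold it. The Klf4 window holds it 182 bases before the start, and that of Klf15 holds it 3 times, at 228, 172 and 3 bases before the start. These letters occur in 7.15% of all windows. The probe set of Mlxipl gives 1 value for the gene, so the 2 forms could not be separated.

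Both strands of the windows of 8 members, 13 windows in all, were also searched for TTGCGCAA (C/EBP), ACANNNTGT (glucocorticoid receptor), the direct repeat bound by PPARgamma with RXR, the palindrome bound by EBF proteins, and CACCC (KLF). The first 4 of these were found in 0 windows of the members, and they occur in 0.183%, 6.85%, 0.0396% and 0.904% of all windows. CACCC was found in 10 of the 13 windows, from 7 of the 8 members, and is common, in 57.5% of all windows. In the members' windows no match overlapped with another. A match of letters is a description and shows no binding.

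The 3 factors of the precursor stage did not share a direction. Ebf1, which is needed for the B cell lineage and promotes fat cell formation, had a signal of 15.49 in the KO_A12 pool and 15.72 in the WT_A12 pool. Its difference was -0.22, with 14.6% of the neighbours lower. Markers of B cells were weak, as all 6 measured ones had a signal under 7 on both arrays. In the KO_A12 pool 5 and in the WT_A12 pool 4 of them were under the background median. Of the 6 markers 4 were higher and 2 lower, with a median of 0.345. The part of B cells in the signal of Ebf1 was not tested. Ebf2, which marks precursors of brown and beige fat cells and directs PPARgamma to their genes, had 9.64 in the KO_A12 pool and 10.36 in the WT_A12 pool. This is a difference of -0.71, or a 1.64-fold lower signal. Zfp423, a zinc finger protein that commits precursors and restrains the beige programme in white fat cells, had 11.40 in the KO_A12 pool and 11.16 in the WT_A12 pool. Its difference of 0.24 was the highest of the members.

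Beside Ebf2, the markers of brown and beige fat cells were mixed. Of 8 markers 5 were higher and 3 lower, with a median of 0.34 and a mean of -0.21. Without the 3 genes under 7 on both arrays the median turned to -0.24. Ucp1, the uncoupling protein that makes heat, had a signal of 4.78 in the KO_A12 pool and 7.47 in the WT_A12 pool, and Cidea, a lipid droplet protein, had 7.47 and 8.89 in the same order. Both passed the 2-fold cutoff as lower, and the signal of Ucp1 in the KO_A12 pool was under the background median. Cox7a1, a subunit of cytochrome c oxidase, had 7.59 in the KO_A12 pool and 6.99 in the WT_A12 pool. Prdm16, a partner of EBF2 in brown fat, had 4.26 in the KO_A12 pool and 3.84 in the WT_A12 pool, both under the background median. Markers of progenitors and fibroblasts were lower in 7 of 8 cases (median -0.34), among them the proteoglycan gene Lum at -1.31 and Pi16, a marker of early progenitors, at signals of 6.04 in the KO_A12 pool and 7.05 in the WT_A12 pool. The summed log2 signals of the 8 were 101.6 in the KO_A12 pool and 105.5 in the WT_A12 pool. None of the 8 was under the background median. The difference of Ebf2 had the sign of most of these markers and that of Zfp423 the opposite sign, and the part of such cells in either difference was not tested.

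A mixed list of precursor genes, compiled for committed preadipocytes, gave no common direction, with 6 of 12 higher and a median of 0.02. It also holds markers of early precursors, such as Dpp4, which is among the progenitor markers above too. Zfp521, the relative of Zfp423 that opposes it, is in the list as well. The median therefore does not describe committed preadipocytes alone. Bmp4, which draws precursors into the fat lineage and to which ZFP423 makes cells more responsive, was at 0.99 (10.42 in the KO_A12 pool and 9.43 in the WT_A12 pool). F3, tissue factor, which marks precursors that hold back fat cell formation, was at -0.90 (9.73 and 10.63 in the same order). Cd24a, which encodes a surface protein of early precursors, was at 0.59 and Dpp4, a marker of early progenitors, at -0.35.

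The relatives of the members were compared next. Of the 4 EBF genes, the 3 with a signal over 7 were all lower, Ebf1 at -0.22, Ebf2 at -0.71 and Ebf3 at -0.32, while Ebf4, at signals of 5.41 in the KO_A12 pool and 4.99 in the WT_A12 pool, was at 0.41. These paralogs are similar in sequence and may share signal. Probe sets over 7 leaned slightly lower in general, with a median difference of -0.04, beside 0.0003 over all probe sets. Among the neighbours in signal the median was -0.12 for Ebf2, -0.09 for Klf4, -0.03 for Klf15 and 0.04 for Ebf1. The direction counts of the EBF and KLF genes were not tested against this lean. Of the 11 KLF genes chosen for this comparison 8 were lower, with a median of -0.15, beside 49.8% lower among all probe sets. After Klf4 the lowest of them were Klf16 at -0.52 and Klf7, which restrains fat cell formation, at -0.37. Klf6 and Klf9, which favour it, were at 0.04 and -0.04. Klf5, another early factor, was at 0.62 with signals of 5.43 and 4.81 in the KO_A12 and WT_A12 pools, both under the background medians. Within the C/EBP family the 5 differences ran from -0.18 to 0.09. Ppara, the relative of Pparg that governs fatty acid oxidation, was at 0.75 (7.67 in the KO_A12 pool and 6.92 in the WT_A12 pool) and passed the signal cutoff only in the KO_A12 pool. Hepatocyte markers had a median difference of 3.43, and the part of liver RNA in the difference of Ppara was not tested. Zfp521, the relative of Zfp423 that opposes it, was at -0.31 (9.42 in the KO_A12 pool and 9.73 in the WT_A12 pool).

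**Figure D3:**
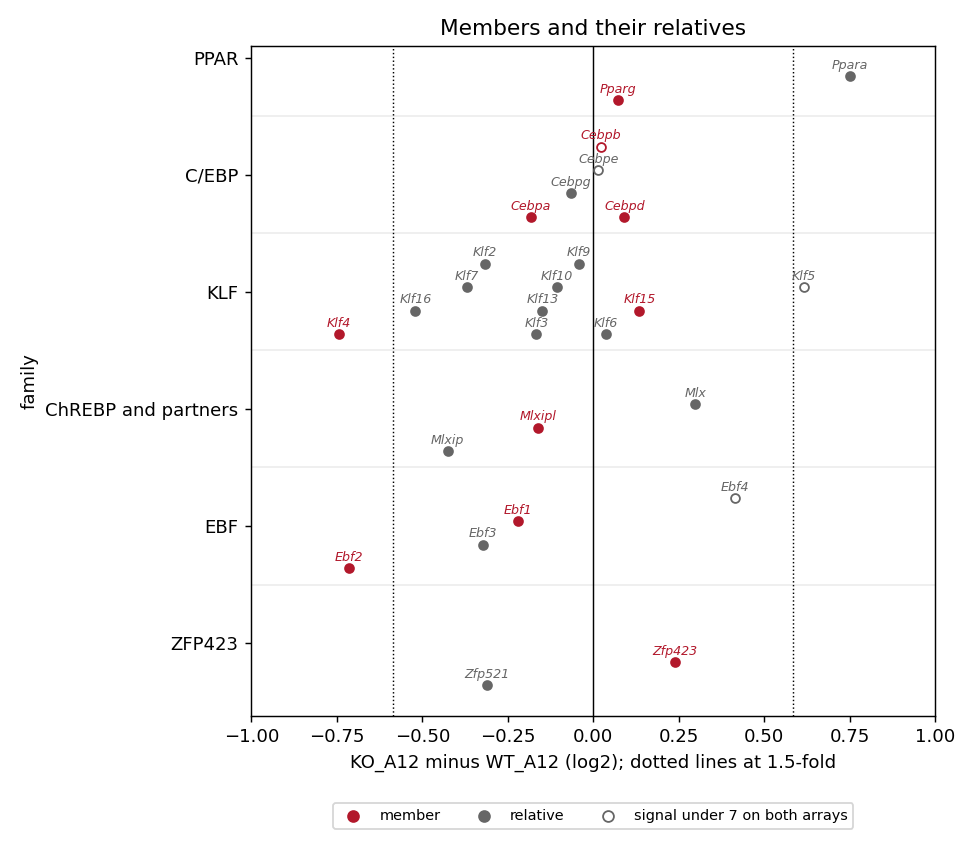
Log2 difference, KO_A12 minus WT_A12 (x axis, 1 probe set per gene and 1 array per pool), of the members (red) and their relatives (grey) by family (y axis, vertical offsets only for legibility). Open circles have a signal under 7 on both arrays, and Klf4, Ebf2, Ppara and Klf5 are the genes beyond the dotted lines at 1.5-fold.

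PPARgamma binds DNA with a retinoid X receptor, and the receptors differed in sign. Rxra was at 0.47 (10.43 in the KO_A12 pool and 9.96 in the WT_A12 pool), Rxrb was at 0.05, and Rxrg was at -0.68 (7.86 in the KO_A12 pool and 8.55 in the WT_A12 pool). Mlx, the partner of ChREBP, was at 0.30 and Mlxip, its relative, at -0.43. Of 17 measured partners and coregulators 8 were higher and 9 lower, with a median of -0.06 that turned to 0.0005 after quantile normalization and to 0.01 after removal of a lowess trend. Rxrg was the only one past 1.5-fold. The coactivator Ppargc1a was at 0.40, with signals of 7.30 in the KO_A12 pool and 6.91 in the WT_A12 pool.

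Of 20 other factors that promote adipogenesis 11 were higher and 9 lower (median 0.02). Besides Egr2, the named ones were Tcf7l1 at 0.81 (9.19 in the KO_A12 pool and 8.37 in the WT_A12 pool), Rxra, and Zfp467 at -0.57 (6.87 and 7.44 in the same order). Of 19 measured factors that restrain adipogenesis 12 were higher and 7 lower, with a median of 0.14. The largest difference in this list among genes with a signal over 7 was that of Nr2f2, which encodes COUP-TFII, at 0.84 (13.16 in the KO_A12 pool and 12.32 in the WT_A12 pool). Nr2f2 is also strong in venous endothelium, and 6 of 7 measured endothelial markers were higher (median 0.22), with summed log2 signals of 84.9 in the KO_A12 pool and 82.9 in the WT_A12 pool and none under the background median. Their part in the difference of Nr2f2 was not tested. Klf2, which also restrains the cascade, was at -0.32.

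Among the genes that these factors switch on in mature fat cells, lower signals in the KO_A12 pool outnumbered higher ones, with a median near 0. Of 21 measured targets of PPARgamma and C/EBPalpha 7 were higher and 14 lower, with a median of -0.07. At the 2-fold cutoffs 0 were higher and 1 was lower. This gene was Pdk4, a kinase that blocks the use of pyruvate, with signals of 11.81 in the KO_A12 pool and 13.19 in the WT_A12 pool. The next was Gpd1, which supplies the glycerol backbone of triglyceride, at -0.53 (15.85 in the KO_A12 pool and 16.38 in the WT_A12 pool). Of the neighbours in signal, 0.0% had a lower difference than Pdk4 and 2.0% a lower one than Gpd1. Fabp5 and Retn, the gene of resistin, were both at 0.34, and Adipoq was at 0.10. The 9 measured white adipocyte markers, 8 of which are in this list of targets too, ran from -0.09 to 0.34.

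Of 15 measured ChREBP targets 11 were higher and 4 lower, with a median of 0.15, while Mlxipl itself was at -0.16. Gpd1, described above at -0.53, is in this list too, and Elovl6, which lengthens fatty acids, was at -0.32 and Arntl, a clock gene, at -0.33. Khk, the enzyme that starts fructose breakdown, was at 0.62 (8.81 in the KO_A12 pool and 8.19 in the WT_A12 pool), Acacb at 0.49 and Acly, which makes acetyl-CoA in the cytosol, at 0.42. Acacb passed the signal of 7 only in the KO_A12 pool, at 7.10 against 6.61 in the WT_A12 pool. Khk and Acacb are also made by the liver, whose markers were all higher, with 1 of 10 under the background median in the KO_A12 pool and 9 of 10 in the WT_A12 pool, and summed log2 signals of 86.6 and 50.6 in the same order. The mean difference of the liver markers was 3.60. The liver enzyme and ChREBP target Pklr was at 0.24, with 5.56 in the KO_A12 pool and 5.32 in the WT_A12 pool. The part of liver RNA in the ChREBP targets was not tested.

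Cebpd, at 0.09, and Klf15, at 0.13, are both induced by glucocorticoids, and so are the 14 genes of a further list, of which 8 were higher and 6 lower (median 0.04). Fkbp5, a chaperone of the glucocorticoid receptor and a sensitive target of it, was at 0.84 (12.32 in the KO_A12 pool and 11.48 in the WT_A12 pool). The phosphatase gene Dusp1 was at 0.38 and Lcn2 at 0.34, while Pdk4, also in this list, was at -1.38.

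**Figure D4:**
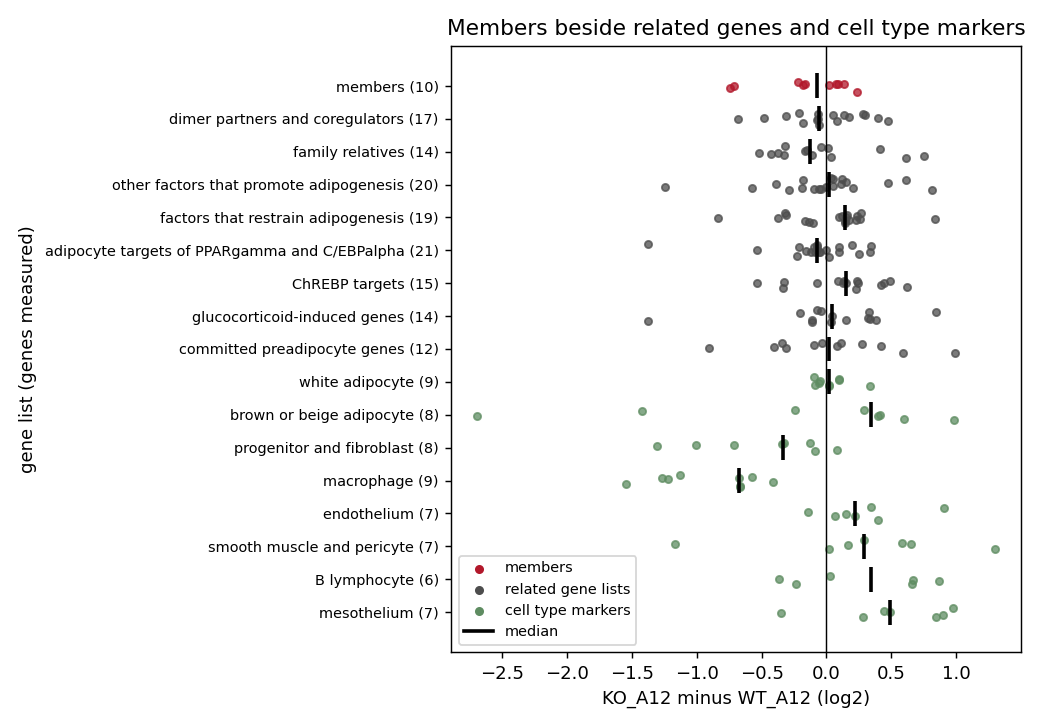
Log2 difference, KO_A12 minus WT_A12 (x axis), of the genes of each list (y axis, number of genes measured in brackets), with a black bar at each median. The medians of the related lists stay between -0.13 and 0.15, as does that of the 10 members at -0.07, while macrophage markers have a median of -0.67. Hepatocyte and seminal vesicle markers, most of them under the background median in the WT_A12 pool, are not drawn.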

How the data were processed

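The deposited log2 signals were made by the authors with the SST-RMA algorithm in the GeneChip Console Software (the submitters' processing notes name RMA), which includes background correction, normalization of the arrays to each other and a summary per probe set. No genome build or annotation version is given in the sources used here. Of 28846 rows, 6640 controls were left out, and 19572 of 22206 probe sets had 1 symbol, all matched to RefSeq genes by Entrez ID. No further scaling was applied in the values reported. A gene with several probe sets entered a list by the one of highest mean signal. The members and lists were chosen with earlier results of these data known, and from each list up to 4 genes that passed a signal of 7 in either pool were named, those farthest from 0. All relatives in the family plot, Slc2a4, Rxrb, Pklr, Prdm16, Elovl6 and Arntl were named after their values were seen. Listed genes without a probe set of that symbol are not analysed here. No test was possible with 1 array per genotype, and for arrays their number limits the precision. The scripts were tested on simulated data. Alternatives were 3 scalings (median centring, quantile normalization, lowess with span 0.3), other cutoffs, the mean over probe sets, a signal filter and, for the members, the mean instead of the median. Python 3.11.15, numpy 2.4.6, pandas 2.3.3, statsmodels 0.14.6 and matplotlib 3.10.9 were used. Promoter windows came from RefSeq GRCm38.p6 for 8 of the 10 members.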

Additional observations from a re-analysis of the deposited data

How the results depend on the processing

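No paired analysis was possible because the KO_A12 and WT_A12 groups hold a single pool each. A value counted as kept if its shift was below the robust standard deviation of the 500 neighbours (genes), below the standard error over the genes (list medians) or within a factor of 1.5 (counts). Under the 3 scalings, applied on top of the authors' own, each member kept its sign, with Klf4 from -0.75 to -0.67 and Ebf2 from -0.72 to -0.64. Under these scalings and without a signal cutoff 0 members passed 2-fold, and under the scalings 0 were higher and 2 lower by 1.5-fold. A 3-fold or stricter signal cutoff can only leave 0, and the mean over probe sets cannot alter members with 1 probe set, so these alternatives say nothing of stability. By this rule all 34 values, the list medians among them, were kept under each of the 3 scalings. The sign of a list median near 0 could still turn. That of partners and coregulators did so (0.0005 after quantile normalization), as did that of white adipocyte markers (-0.02 with the lowess trend removed, against 0.02). Without genes under 7 on both arrays 2 of 17 list medians were not kept. These were -0.24 for brown or beige adipocyte markers, against 0.34, and 0.87 for mesothelium markers, against 0.49. The mean of the 10 members was -0.15.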
